A study of Saccharomyces cerevisiae BY4741 with 9 samples.

Results

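The genes that make and break down glycogen were followed in a budding yeast mutant of the cohesin loader, scc2-4, and in wild type (WT). The 10 genes were taken by name from the 7130 features of the deposited table: GLG1, GLG2, GSY1, GSY2, GLC3, GPH1, GDB1, PGM1, PGM2 and UGP1. Each had 1 row, and all 10 were expressed above the filter on low values described with the processing. In scc2-4, 8 of the 10 were called at least 2-fold lower, against 3.83% of all features tested. PGM1 rose, and GLG2 did not pass the test.

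The scc2-4 cultures carried the scc2-4 mutant allele of SCC2, whose protein loads the cohesin ring onto chromosomes together with Scc4. The WT cultures had the unmutated gene, and both genotypes are labelled BY4741, a standard haploid laboratory strain. Cultures were harvested in exponential growth at an optical density of 0.7 in YPD with a complete supplement (CSM), and the series asks which transcript levels differ in scc2-4, with 3 biological replicates by its design text. The labels give neither the growth temperature nor the growth rate of the cultures, and they do not say whether the mutant was 1 clone. The scc2-4 libraries were made after depletion of ribosomal RNA. WT RNA was split and made into libraries both with and without that depletion, and the names of the 3 WT columns do not say which kind they hold. If they hold libraries made without depletion, preparation and genotype cannot be told apart in any comparison below. The ribosomal RNA features RDN37-1, RDN58-1 and RDN5-1 had log2 changes of -0.39, -0.52 and -0.65 (scc2-4 minus WT). Which preparation the WT columns hold was not tested. The scc2-4 allele is a mutant form of the gene and not a deletion, so a transcript level cannot check the genotype labels. Of the marker genes deleted in BY4741, LEU2 and MET17 were listed at 0 RPKM in all 6 libraries, and URA3 at 0.06 RPKM in scc2-4 replicate 2 and at 0 in the others. HIS3, of which this strain keeps a part, had 38.7 to 55.3 RPKM.

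Values are reads per 1000 bases of feature and per 1000000 reads assigned to features (RPKM), so levels of different genes can be set side by side, and all levels are relative to the other transcripts of the same library. The libraries held 14930000 to 21930000 assigned reads in scc2-4 and 14730000 to 17670000 in WT. WT replicate 1 stood apart. Over all features its log2 values correlated with those of WT replicates 2 and 3 at 0.977 and 0.968, against 0.990 to 0.993 among the scc2-4 libraries and 0.993 between WT replicates 2 and 3. Results for the glycogen genes are therefore given with and without it. It was set apart after its values were seen, and the WT libraries that remain lie close to each other. Smaller adjusted p-values without it are thus not stronger evidence. On chromosome IX, 174 of 244 features tested were higher in scc2-4, with a median log2 change of 0.81, and none of the 10 genes lies there.

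Glycogen is the branched glucose store of yeast. The glycogenins prime a short chain on themselves, glycogen synthase lengthens it from UDP-glucose, and the branching enzyme adds branch points; phosphorylase and the debranching enzyme take the polymer apart again. Phosphoglucomutase converts glucose 6-phosphate and glucose 1-phosphate into each other, and UDP-glucose pyrophosphorylase makes UDP-glucose, which also feeds trehalose and the glucans of the cell wall. Yeast is known to store glycogen as glucose runs down or under stress, and protein kinase A (PKA) is known to hold the genes of this pathway down during growth on plentiful glucose. Glycogen itself was not measured.

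Of the 10 genes, 8 were lower in scc2-4, 1 was higher and 1 was past neither, at an adjusted p of 0.05 in limma (Benjamini-Hochberg, over the whole table of 6559 features that were tested). Over all features, 32.5% were called, 15.0% as lower and 17.5% as higher. All 8 of the lower genes were at least 2-fold lower, which 3.83% of all features were. The median log2 change of the 10 genes was -2.12, against 0.05 over all features. For 9 genes every scc2-4 library lay below every WT library, an order seen in 23.6% of all features. For PGM1 every scc2-4 library lay above, an order seen in 2027 of the 6559 features tested. The sum of the 10 genes was 848, 707 and 515 RPKM in scc2-4 replicates 1, 2 and 3, against 5632, 2625 and 2203 RPKM in WT replicates 1, 2 and 3. WT replicate 1 thus held the highest level of the pathway by far, and scc2-4 replicate 3 the lowest. The WT mean of this sum was 5.05 times the scc2-4 mean with all libraries and 3.5 times without WT replicate 1. In cultures, fewer cells with a transcript and less of it per cell cannot be told apart.

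**Figure D1:**
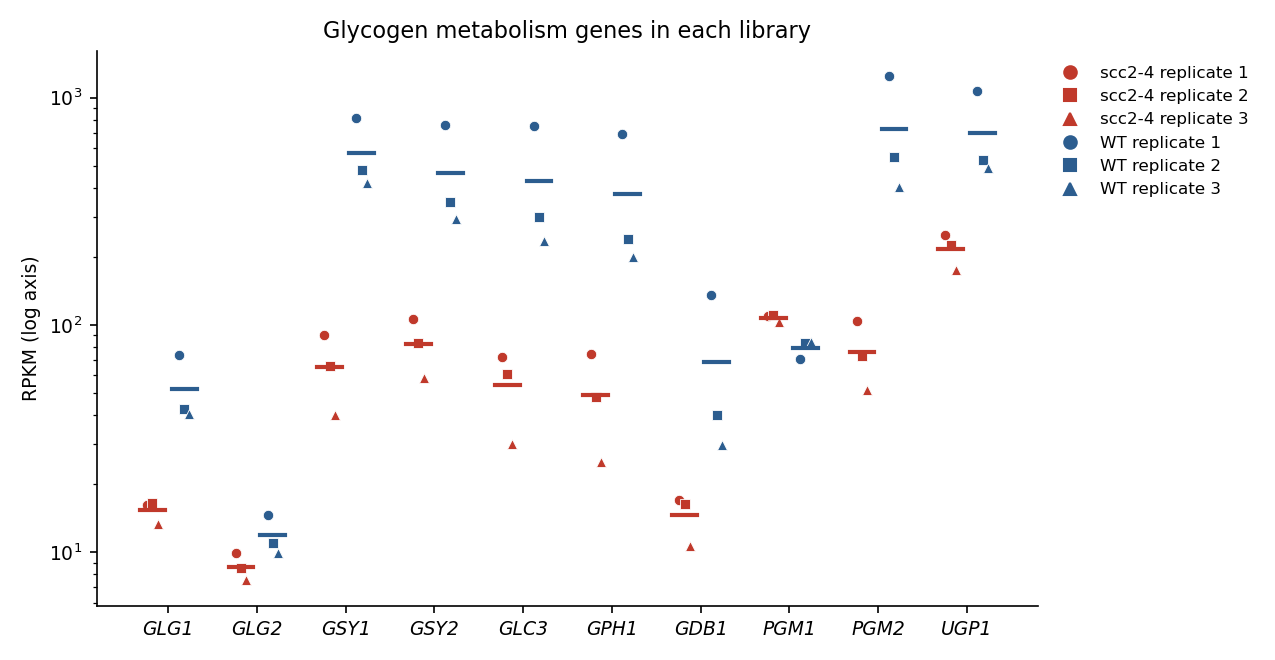
RPKM of each glycogen gene (log axis) in the 3 scc2-4 libraries (red, left of each pair) and the 3 WT libraries (blue, right), with bars at the means. For 9 genes the scc2-4 points lie below all WT points, for PGM1 above them, and WT replicate 1 is the highest library for 9 of the 10 genes.

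The promoters were read for the stress element, the letters AGGGG on either strand (CCCCT on the other strand), which the related activators Msn2 and Msn4 are known to bind. In the 500 bases before the start codon, 9 of the 10 genes held at least 1 match and 8 held at least 2. Of 6659 promoters of the same length, 33.7% held at least 1 and 8.03% at least 2. PGM2 held 5, GLC3 held 3, GSY1, GSY2 and GPH1 held 2 each, and PGM1, the gene that rose, held 3. The stretches that contain these matches are printed 5′ to 3′ on the strand of the gene, with the element in capitals; they show that the letters occur before genes that fell and before the gene that rose. Coordinates and letters are from the RefSeq R64 assembly, the sacCer3 build. They are PGM2, chrXIII:477806-478024 (minus strand), GLC3, chrV:132734-132923 (plus), GSY2, chrXII:660327-660536 (plus), GSY1, chrVI:176707-176870 (minus), GPH1, chrXVI:860937-860996 (plus), and PGM1, chrXI:203041-203244 (plus).
PGM2: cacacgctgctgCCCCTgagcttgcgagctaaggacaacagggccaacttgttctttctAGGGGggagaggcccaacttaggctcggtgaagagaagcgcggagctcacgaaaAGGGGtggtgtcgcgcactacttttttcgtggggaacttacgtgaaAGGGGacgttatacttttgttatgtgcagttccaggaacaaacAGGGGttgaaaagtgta
GLC3: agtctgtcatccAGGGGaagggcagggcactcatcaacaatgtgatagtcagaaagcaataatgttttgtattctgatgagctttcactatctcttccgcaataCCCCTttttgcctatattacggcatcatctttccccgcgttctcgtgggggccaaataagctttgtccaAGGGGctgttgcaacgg
GSY2: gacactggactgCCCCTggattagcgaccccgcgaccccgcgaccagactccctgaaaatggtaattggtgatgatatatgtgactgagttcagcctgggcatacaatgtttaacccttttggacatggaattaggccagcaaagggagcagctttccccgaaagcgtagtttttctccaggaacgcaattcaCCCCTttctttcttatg
GSY1: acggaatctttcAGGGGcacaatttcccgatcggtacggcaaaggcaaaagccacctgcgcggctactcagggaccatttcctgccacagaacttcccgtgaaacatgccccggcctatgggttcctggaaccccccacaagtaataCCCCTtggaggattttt
GPH1: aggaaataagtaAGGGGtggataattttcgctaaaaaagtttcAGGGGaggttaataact
PGM1: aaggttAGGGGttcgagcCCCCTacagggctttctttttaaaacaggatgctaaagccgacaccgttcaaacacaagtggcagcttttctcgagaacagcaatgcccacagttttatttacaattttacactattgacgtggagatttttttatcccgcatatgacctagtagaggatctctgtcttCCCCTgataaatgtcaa
All 5 matches before PGM2 lay outside annotated features, beginning 216 to 406 bases before the start codon. Before PGM1, 2 of the 3 matches lay inside a transfer RNA gene, tK(CUU)K. All 4 matches before UGP1 lay inside the neighbouring gene AIM26. GDB1 held 1 match and GLG2 held 2, 1 of them inside YJL136W-A, while GLG1 held none in this window. The count of matches did not follow the size of the change gene by gene, since GLG1 with none was 3.13-fold lower and PGM1 with 3 was higher. Whether any match is bound was not measured.

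**Figure D2:**
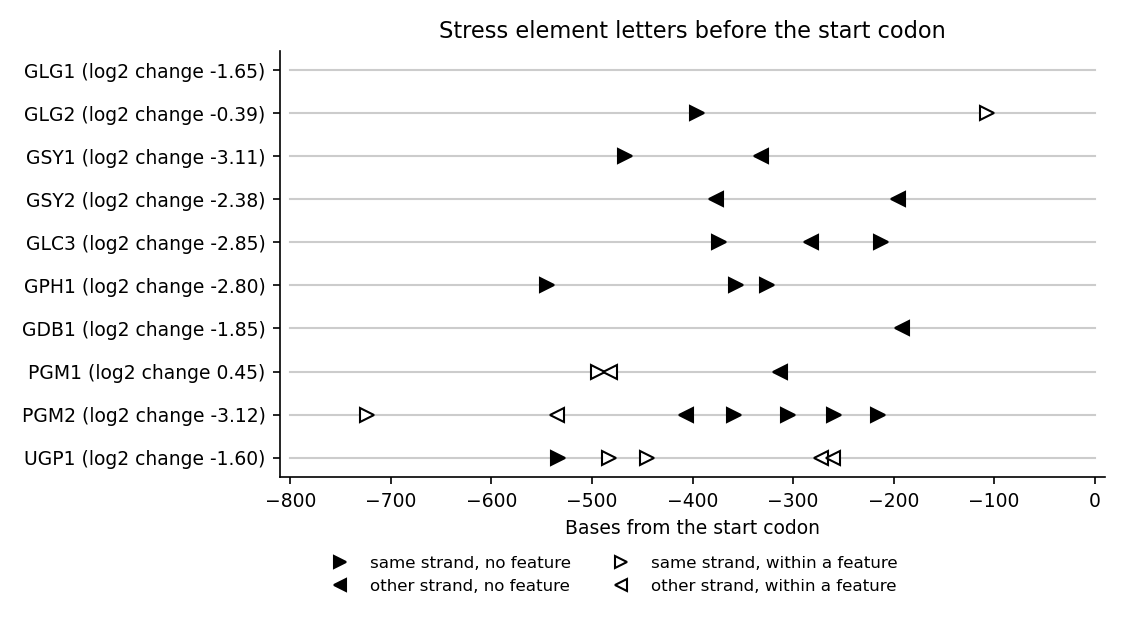
Positions of the stress element letters in the 800 bases before each start codon (x axis, bases from the start codon); arrowheads point right for the gene's own strand and left for the other, and open ones lie within another annotated feature. PGM2 carries the longest run of matches outside features, 5 that begin 216 to 406 bases before its start, and GLG1 carries none.

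The glycogenins, which start new glycogen chains, differed in how far they moved. GLG1 (YKR058W, chrXI:552770-554620, plus strand) had 16.2, 16.5 and 13.3 RPKM in scc2-4, against 73.9, 42.6 and 40.4 RPKM in WT. The mutant libraries lay close together and well under the lowest WT library. GLG1 fell 3.13-fold on the log2(RPKM + 1) scale, a log2 change of -1.65 ± 0.20 (SE; adjusted p = 0.00317 in limma), and 2.67-fold without WT replicate 1 (adjusted p = 0.000207). GLG2 (YJL137C, chrX:154985-156127, minus strand), the second glycogenin gene, had 9.9, 8.51 and 7.51 RPKM in scc2-4, against 14.6, 11.0 and 9.96 RPKM in WT. It was the least abundant of the 10 genes, and its highest scc2-4 library sat just under its lowest WT library. Its log2 change of -0.39 had a 95% interval of -0.72 to -0.07 before adjustment and did not pass the test (adjusted p = 0.0626, 0.0319 to 0.191 over the alternatives). Leaving out WT replicate 3 gave an adjusted p of 0.0461, and leaving out WT replicate 1 gave 0.102.

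Both glycogen synthase genes, whose products lengthen the chains, fell. GSY1 (YFR015C, chrVI:174265-176391, minus strand) had 89.9, 66.2 and 40.1 RPKM in scc2-4, against 811, 479.5 and 419.5 RPKM in WT. Even its highest scc2-4 library was far below its lowest WT library. GSY1 ranked 1614 of 6696 protein-coding features in scc2-4 and 232 in WT. The fall of GSY1 was 8.62-fold (log2 change -3.11 ± 0.31, adjusted p = 0.00215), and 7.28-fold with WT replicate 1 left out (adjusted p = 0.000532). GSY2 (YLR258W, chrXII:660716-662833, plus strand), known as the main synthase isoform of resting cells, had 106, 83.4 and 58.7 RPKM in scc2-4, against 761, 349 and 292 RPKM in WT. All scc2-4 libraries were again below all WT libraries, while WT replicate 1 was 2.38 times the mean of the other WT libraries. GSY2 fell 5.21-fold (log2 change -2.38 ± 0.35, adjusted p = 0.00509), or 4.01-fold when WT replicate 1 was left out (adjusted p = 0.000706).

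GLC3 (YEL011W, chrV:133120-135234, plus strand), the branching enzyme gene, had 72.5, 60.6 and 29.9 RPKM in scc2-4, against 751, 299.5 and 234 RPKM in WT. The genotypes did not overlap, with scc2-4 replicate 3 low and WT replicate 1 high within their groups. GLC3 fell 7.19-fold (log2 change -2.85 ± 0.45, adjusted p = 0.0069), and 5.23-fold leaving out WT replicate 1 (adjusted p = 0.00174).

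The genes for breaking glycogen down fell along with those for making it. GPH1 (YPR160W, chrXVI:861306-864014, plus strand), glycogen phosphorylase, had 74.5, 48.1 and 24.9 RPKM in scc2-4, against 693, 239 and 199 RPKM in WT. The lowest WT library was still above the highest scc2-4 library. GPH1 fell 6.98-fold (log2 change -2.80 ± 0.51, adjusted p = 0.0101), and 4.89-fold if WT replicate 1 is left out (adjusted p = 0.00337). The small annotated features YPR160C-A and YPR160W-A lie within GPH1, with log2 changes of -2.91 and -3.15. The use of strand in counting is not stated, so their reads and those of GPH1 cannot be told apart. GDB1 (YPR184W, chrXVI:902044-906654, plus strand), the debranching enzyme gene, had 17.0, 16.3 and 10.6 RPKM in scc2-4, against 136, 40.3 and 29.7 RPKM in WT. Its WT replicate 1 was 3.87 times the mean of the other WT libraries, the widest such gap among the 10 genes. GDB1 fell 3.60-fold (log2 change -1.85 ± 0.49, adjusted p = 0.0283), but only 2.37-fold without WT replicate 1 (adjusted p = 0.00317). GDB1 was no longer called when any 1 scc2-4 library was left out, at adjusted p = 0.0690, 0.0778 and 0.0974 for replicates 1, 2 and 3, and 0.00317 to 0.0974 was the range over its alternatives.

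The balance of synthase and GPH1 transcripts did not separate the genotypes. The summed level of GSY1 and GSY2 was 2.64, 3.11 and 3.97 times that of GPH1 in scc2-4 replicates 1, 2 and 3, and 2.27, 3.46 and 3.58 times in WT replicates 1, 2 and 3. The genotypes overlapped in this ratio, with means of 3.24 ± 0.675 in scc2-4 and 3.10 ± 0.724 in WT (SD, n = 3 each). GDB1, the other breakdown gene, is not in this ratio. It fell less than GSY1 and GSY2, 3.60-fold against 8.62-fold and 5.21-fold.

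The genes that supply UDP-glucose did not move together. PGM2 (YMR105C, chrXIII:475897-477606, minus strand), known as the major phosphoglucomutase, had 104, 73.1 and 51.9 RPKM in scc2-4, against 1246, 546 and 403 RPKM in WT. No scc2-4 library reached the lowest WT library. PGM2 was at rank 1420 of 6696 protein-coding features in scc2-4 and at rank 169 in WT. It had the highest WT mean of the 10 genes with all libraries, but without WT replicate 1 its WT mean of 474 RPKM was below that of UGP1, 513 RPKM. PGM2 fell 8.69-fold (log2 change -3.12 ± 0.40, adjusted p = 0.00357), and 6.46-fold with WT replicate 1 set aside (adjusted p = 0.000495). PGM1 (YKL127W, chrXI:203541-205253, plus strand), the other phosphoglucomutase gene, had 109, 111 and 103 RPKM in scc2-4, against 70.7, 83.4 and 84.2 RPKM in WT. All scc2-4 libraries were above all WT libraries, and WT replicate 1, highest in WT for the other 9 genes, was lowest here. PGM1 rose 1.36-fold (log2 change 0.45 ± 0.13, adjusted p = 0.0338), and 1.25-fold without WT replicate 1 (adjusted p = 0.0128). Its call ended when scc2-4 replicate 1, 2 or 3 was left out (adjusted p = 0.0922, 0.112 and 0.0958) or WT replicate 2 (adjusted p = 0.0598), and 0.0128 to 0.112 was the range over its alternatives.

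UGP1 (YKL035W, chrXI:369891-371390, plus strand), UDP-glucose pyrophosphorylase, had 249, 224 and 175 RPKM in scc2-4, against 1074, 534 and 492 RPKM in WT. All scc2-4 libraries lay below all WT libraries. UGP1 was the most abundant of the 10 genes in scc2-4, at rank 562 of 6696. UGP1 fell 3.04-fold (log2 change -1.60 ± 0.27, adjusted p = 0.00817), and 2.44-fold once WT replicate 1 was left out (adjusted p = 0.000708). The overlapping feature YKL036C shares 30 bases with UGP1 and had a log2 change of -1.64. UGP1 stood at 1.27, 1.50 and 1.77 times the summed synthase genes in scc2-4, against 0.683, 0.645 and 0.692 times in WT, so relative to GSY1 and GSY2 it was higher in every scc2-4 library.

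**Figure D3:**
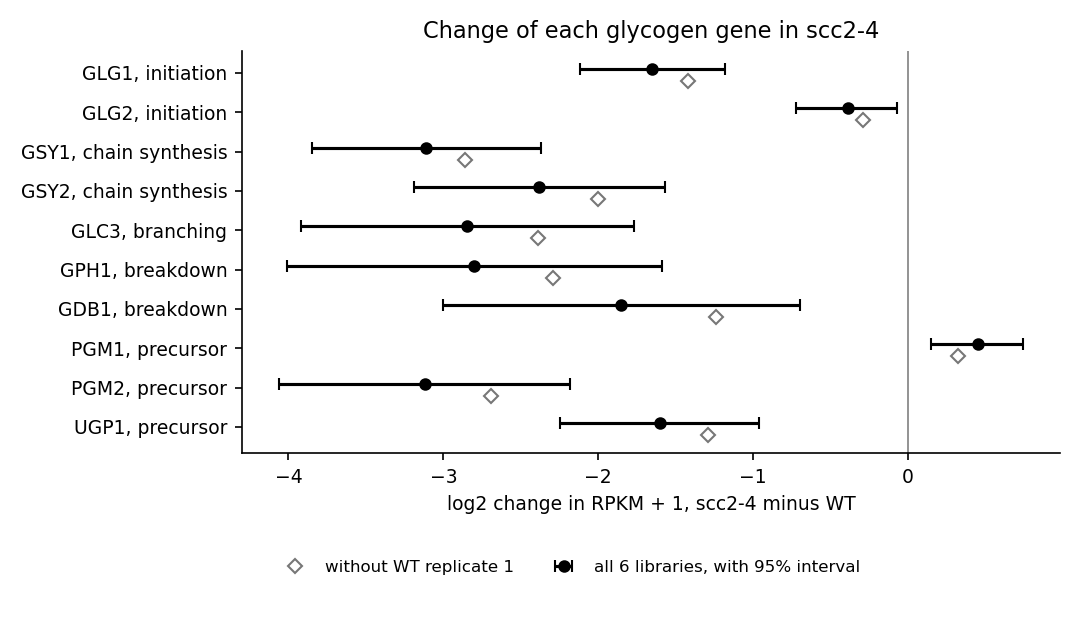
Log2 change of each glycogen gene (x axis, scc2-4 minus WT, log2 of RPKM + 1), with filled circles and 95% intervals from all 6 libraries and open diamonds without WT replicate 1. PGM2 and GSY1 show the largest falls, -3.12 and -3.11, GLG2 lies near 0 at -0.39, and PGM1 alone lies above 0 at 0.45.

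Within each of the 3 pairs of related genes, the share of the member that was more abundant in WT was smaller in scc2-4. PGM2 made up 48.8%, 39.8% and 33.5% of the phosphoglucomutase RPKM in scc2-4 replicates 1, 2 and 3, against 94.6%, 86.7% and 82.7% in WT replicates 1, 2 and 3. PGM1 was thus the more abundant phosphoglucomutase transcript in every scc2-4 library and PGM2 in every WT library. GLG1 made up 62.0%, 66.0% and 63.9% of the glycogenin RPKM in scc2-4, against 83.5%, 79.5% and 80.2% in WT. GSY1 made up 45.8%, 44.2% and 40.6% of the synthase RPKM in scc2-4, against 51.6%, 57.9% and 59.0% in WT, so GSY2 led in every scc2-4 library and GSY1 in every WT library. The differences in mean share were -47.3 percentage points for PGM2, -17.1 for GLG1 and -12.6 for GSY1. An exact two-sided permutation test over the libraries gave p = 0.10 for each pair, the smallest that 3 against 3 allows, and 0.10 after Benjamini-Hochberg adjustment over the 3 pairs. Without WT replicate 1 the differences were -44.0, -15.9 and -14.9 points. The coding sequences of PGM1 and PGM2 are 72.8% identical, with a longest shared run of 23 bases. Those of GSY1 and GSY2 are 73.2% identical with a run of 20, and those of GLG1 and GLG2 are 68.3% identical with a run of 14. No pair shares a stretch of 36 bases; the read length is not given in the sources used here.

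**Figure D4:**
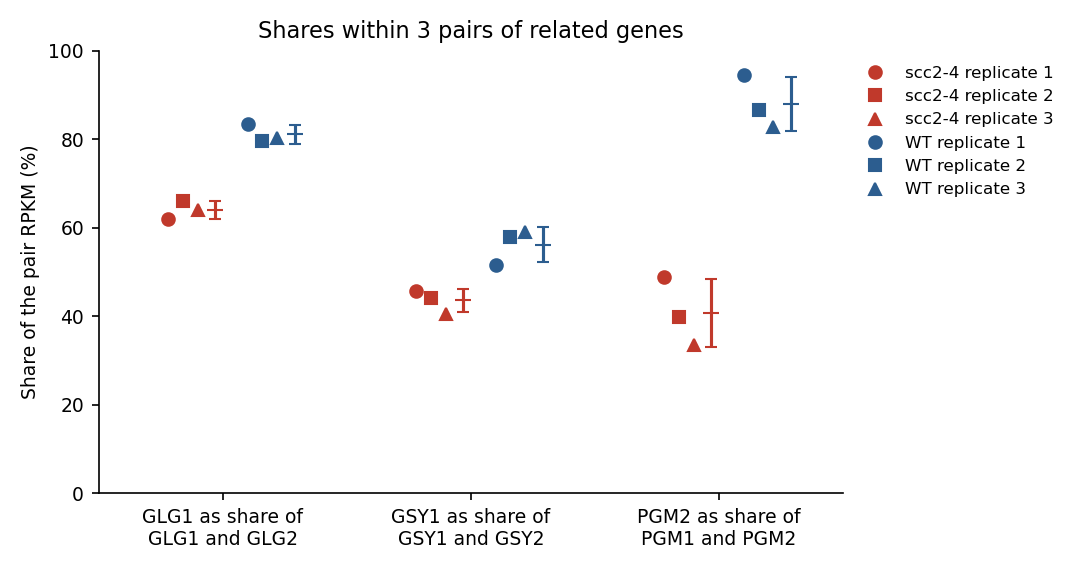
Share of the pair's RPKM (y axis, percent) taken by GLG1, GSY1 and PGM2 in each scc2-4 library (red, left) and each WT library (blue, right), with mean and SD beside the points. PGM2 averages 40.7% in scc2-4 and 88.0% in WT, and the genotypes do not overlap for any of the 3 pairs.

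The variation among replicates ran the same way across the pathway. WT replicate 1 was the highest WT library for every gene except PGM1, at 1.40 times (GLG2) to 3.87 times (GDB1) the mean of WT replicates 2 and 3. For all 10 genes scc2-4 replicate 3 was the lowest mutant library. The sum of the 10 genes fell from replicate 1 to 2 to 3 in both genotypes. Across the 6 libraries, the centred log2 level of each gene other than PGM1 correlated with the mean of the other 9 at r = 0.955 (GDB1) to 0.999 (GSY2), and PGM1 at -0.952. These 6 points form 2 separate groups by genotype and share their library with every other gene, so the values describe likeness and were not tested. Outside the 10 genes, the features most like their mean over the 6 libraries were YET3 and RMR1 (r = 0.9990 each), DIP5 and DDR2 (r = 0.9983 each) and YDR387C (r = 0.9979). DIP5, a permease for acidic amino acids, had 54.3, 45.2 and 35.0 RPKM in scc2-4, against 197, 119 and 109 RPKM in WT. Such likeness was common: 522 of 4333 candidate features, or 12%, reached r = 0.95.

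Regulators of the glycogen enzymes, the phosphatase Glc7, the kinases Pho85 and Snf1 and their partners, were lower in part. The list and its counts also include SGA1, which encodes a glucoamylase and not a regulator. It did not pass the test in limma (adjusted p = 0.233). Of 17 listed, 8 were lower, 0 were higher in limma (0 also at an unadjusted p under 0.05) and 9 were past neither. Their median log2 change was -0.43, and over all features 15.0% were lower and 17.5% higher. PCL6, a cyclin of the kinase Pho85, averaged 17.4 ± 0.756 RPKM in scc2-4 and 30.2 ± 4.12 RPKM in WT (SD, n = 3 each), a log2 change of -0.74 (adjusted p = 0.00329 in limma). PCL8 and PCL10, the cyclins with which Pho85 is known to phosphorylate glycogen synthase, fell by 1.00 and 0.48 on the log2 scale (adjusted p = 0.00542 and 0.0104). GAC1, which directs the phosphatase Glc7 to glycogen synthase, averaged 5.28 ± 1.34 RPKM in scc2-4 and 15.2 ± 6.06 RPKM in WT, a fall of 2.50-fold (adjusted p = 0.0103). PCL10 lost its call when scc2-4 replicate 2 or 3 was left out (adjusted p = 0.0516 and 0.0506), in a range of 0.00376 to 0.0516 over its alternatives. Without scc2-4 replicate 2 or 3 the count of lower regulators was 4. Over all features the count of lower calls also fell in these fits, from 984 to 408 and 386. Without WT replicate 1, PCL7 and SGA1, chosen after their values were seen and both on chromosome IX, were higher (log2 changes 0.29 and 0.58, adjusted p = 0.0171 and 0.0153). GLC7 itself, the phosphatase gene, named here after its value was seen, averaged 172 ± 11.4 RPKM in scc2-4 and 198 ± 31.5 RPKM in WT and did not pass the test (adjusted p = 0.257).

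Genes that share glucose phosphates or UDP-glucose with the pathway were lower in part. Of 18 listed, 10 were lower, 1 was higher and 7 were past neither, beside 15.0% lower and 17.5% higher over all features. Their median log2 change was -0.82. EMI2 and GLK1, a related pair of which GLK1 encodes glucokinase, averaged 127 ± 23.1 and 233 ± 50.0 RPKM in scc2-4, against 917 ± 389 and 1398 ± 669 RPKM in WT. They fell 6.83-fold and 5.62-fold (adjusted p = 0.00168 and 0.00311); GLK1 overlaps YCL042W. TPS2 and TPS1, the phosphatase and synthase genes of trehalose synthesis, fell 3.48-fold and 2.71-fold (adjusted p = 0.0038 and 0.00603). KRE6, which acts in synthesis of cell wall glucan, rose 1.38-fold to 214 ± 21.5 RPKM in scc2-4, against 156 ± 7.76 RPKM in WT (adjusted p = 0.0272). KRE6 lost its call when scc2-4 replicate 1, 2 or 3 was left out (adjusted p = 0.0909, 0.101 and 0.0557), or WT replicate 2 (adjusted p = 0.0658), in a range of 0.0195 to 0.101. PGI1, picked out after seeing its value, leads from glucose 6-phosphate into glycolysis. It averaged 1853 ± 139 RPKM in scc2-4 and 1746 ± 78.0 RPKM in WT and did not pass the test (adjusted p = 0.564).

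Among the genes of PKA signalling and of stress and glucose regulation, 12 of 27 were lower, 3 were higher and 12 were past neither, with a median log2 change of -0.03. Over all features 15.0% were lower and 17.5% higher, so the count of higher genes in this list was not above that of the table as a whole. TPK2, which encodes a catalytic subunit of PKA, averaged 35.7 ± 4.30 RPKM in scc2-4, against 117 ± 39.8 RPKM in WT. It fell 3.10-fold (adjusted p = 0.00315), whereas TPK3, which also encodes a catalytic subunit, rose 1.71-fold to 17.7 ± 0.602 RPKM in scc2-4, against 10.3 ± 2.79 RPKM in WT (adjusted p = 0.0333). RAS2, a GTPase gene that acts upstream of adenylate cyclase, fell 2.36-fold (adjusted p = 0.0036). MSN4, an activator of the stress element, averaged 12.6 ± 1.04 RPKM in scc2-4 and 26.0 ± 7.01 RPKM in WT, a fall of 1.94-fold (adjusted p = 0.00717). MSN2, the related activator, named after its value was seen, averaged 15.0 ± 0.785 RPKM in scc2-4 and 14.0 ± 0.647 RPKM in WT and did not pass the test (adjusted p = 0.386). The repressor genes NRG1 and XBP1 rose 1.34-fold and 1.60-fold (adjusted p = 0.0188 and 0.0311), and XBP1 lies on chromosome IX. The 3 rises were not stable to leaving out 1 library. That of TPK3 ended without scc2-4 replicate 1, 2 or 3 or WT replicate 2 (adjusted p up to 0.107 over its alternatives, lowest 0.00661). That of NRG1 ended without scc2-4 replicate 2 or 3 or WT replicate 2 (0.0145 to 0.0772), and that of XBP1 without scc2-4 replicate 1 or 2 or WT replicate 2 or 3 (0.0199 to 0.109). Without WT replicate 1 a further gene, COM2, named after its value was seen, was higher (log2 change 0.51, adjusted p = 0.00379). The list's count of calls was 9, 8 and 7 without scc2-4 replicates 1, 2 and 3. Over all features the count also fell in these fits, from 2133 to 1039, 781 and 766.

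**Figure D5:**
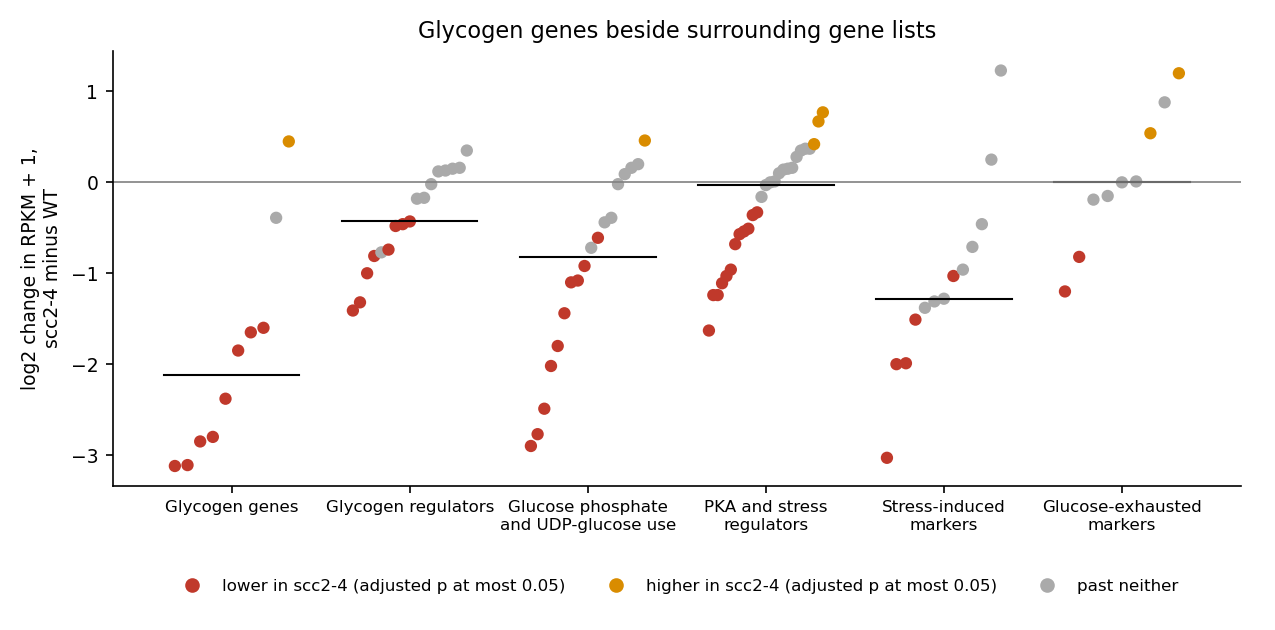
Log2 change (y axis, scc2-4 minus WT, log2 of RPKM + 1) of each gene in the glycogen set and in 5 surrounding lists, each dot 1 gene in order of change and each black line the list's median. The glycogen genes have a median of -2.12, the stress-induced markers -1.28, the genes that share glucose phosphates or UDP-glucose -0.82, and the PKA and stress regulators -0.03.

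Markers of other growth states that the cultures could hold moved in part with the glycogen genes. Of 13 stress-induced markers, 5 were lower, 0 were higher in limma (0 also at an unadjusted p under 0.05) and 8 were past neither, against 15.0% lower and 17.5% higher over all features. The median log2 change of the list was -1.28. SIP18 went the other way, with 26.3, 19.3 and 21.9 RPKM in scc2-4 replicates 1, 2 and 3, against 24.4, 8.14 and 3.31 RPKM in WT replicates 1, 2 and 3; it was picked out after its values were seen. Its genotypes overlapped through WT replicate 1, and its log2 change of 1.23 did not pass the test (adjusted p = 0.117), but without that library it was 3.63-fold higher (adjusted p = 0.00273). HSP26, chosen likewise, had a log2 change of 0.25 and did not pass the test (adjusted p = 0.619). The summed level of the 13 markers was 1223 to 2132 RPKM in scc2-4 and 2198 to 7504 RPKM in WT, and none was at 0 in any library. PNC1, a nicotinamidase gene, SOL4, a gene of the pentose phosphate pathway, and DDR2, a stress response gene, fell 4.01-fold, 3.98-fold and 8.17-fold (adjusted p = 0.00318, 0.00797 and 0.00842). The fall of DDR2 was 5.42-fold without WT replicate 1. HOR7 fell 2.05-fold (adjusted p = 0.0358), a call that ended without scc2-4 replicate 1, 2 or 3 or WT replicate 2 (0.00686 to 0.120 over its alternatives). HSP12, a small heat shock protein gene named after its values were seen, had 779, 398 and 413 RPKM in scc2-4 replicates 1, 2 and 3, against 2496, 421 and 327 RPKM in WT replicates 1, 2 and 3. Its genotypes overlapped, and it did not pass the test (adjusted p = 0.619).

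Set against the WT mean, the median log2 level of the stress-induced markers was -0.69, -1.11 and -1.73 in scc2-4 replicates 1, 2 and 3, against 1.07, -0.33 and -0.74 in WT replicates 1, 2 and 3. That of the 10 glycogen genes was -1.83, -2.00 and -2.51 in scc2-4 and 0.69, -0.24 and -0.43 in WT. Both sets were highest in WT replicate 1 and lowest in scc2-4 replicate 3. The stress-induced markers of scc2-4 replicate 1 lay just within the range of WT, while the glycogen genes of every scc2-4 library lay below it. Between libraries of equal replicate number, both sets were lower in scc2-4 each time. Whether equal numbers mark pairs is not known. Of 9 markers of exhausted glucose, 2 were lower (ICL1 and JEN1, log2 changes of -0.82 and -1.20), 2 were higher (ADH2 and SNO1, 1.20 and 0.54) and 5 were past neither, with adjusted p = 0.00558, 0.0428, 0.00889 and 0.0252 for the 4. These counts lie near the shares over all features, 15.0% lower and 17.5% higher. SNZ1, also chosen after its value was seen, was higher without WT replicate 1 (log2 change 1.20, adjusted p = 0.00325) and not with all libraries (adjusted p = 0.0608). The calls of JEN1 and SNO1 ended without scc2-4 replicate 1, 2 or 3 or WT replicate 2, and that of JEN1 also without centring, with adjusted p of up to 0.136 and 0.0964 over their alternatives (lowest 0.0131 and 0.00531). The summed level of these 9 markers was 101 to 119.5 RPKM in scc2-4 and 90.4 to 157 RPKM in WT, and none was at 0. With the replicate number as a block in the fit, both marker lists together had 13 calls, 11 of them lower. In the main fit they had 9 calls, 7 of them lower, and 5 calls without any 1 scc2-4 library or without WT replicate 2. Calls over all features also fell in these fits, from 2133 to between 766 and 1415. The part of growth state in the changes of the glycogen genes was not tested.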

How the data were processed

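Transcript levels came from 1 deposited table of RPKM values made by the authors, with 7130 features and 6 columns, 3 for scc2-4 and 3 for WT. Reads were aligned with Bowtie to sacCer3, per the submitters' processing notes; its version is not given in the sources used here, nor is the counter. RPKM times feature length summed to 1000000 or 999999 in each column, so values are relative to reads assigned to features. Depths were read from the whole-read steps of low values. Strand use in counting is not stated, and 1420 features overlap another. The RefSeq annotation of this build held 6048 of the identifiers, 99.8% of them with equal start and end. Where WT column names fitted both preparations, columns were used as WT only.

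Values were transformed to log2(RPKM + 1), centred on each library's median feature (the shift between genotypes before centring was 0.037), and kept at a mean RPKM of at least 1, which left 6559 features. A fold change on this scale understates the change of low genes. Genotypes were compared two-sided with limma 3.58.1 in R 4.3.3 (empirical Bayes with trend), Benjamini-Hochberg adjustment over all features and a threshold of 0.05, after a test on simulated data. The simulated noise was independent and of the same size in every feature and library. That test therefore does not cover variation shared by many genes, such as that of WT replicate 1. Python 3.11.15 with numpy 2.4.6, pandas 2.3.3, scipy 1.17.1, matplotlib 3.10.9 and Biopython 1.88 did the rest. P-values measure the spread between these libraries.

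The genes and lists were chosen with earlier results of these data known. All 10 glycogen genes are named; from each other list the 4 with the smallest adjusted p and those called against the list's majority; and the 5 features most like the mean of the 10, among features of mean RPKM of at least 10 that overlap no other. For 1 gene this rule names, the result is not reported here. Other names are marked as chosen after their values were seen. The alternatives were a pseudocount of 0.1, no filter, a filter of 10, no centring, quantile normalization, no trend, a replicate block, features without overlap, and leaving out each library.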

Additional observations from a re-analysis of the deposited data

How the results depend on the processing

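The 10 glycogen genes kept their direction under every alternative, and 7 to 10 of them were called, 9 with all libraries. GLG1, GSY1, GSY2, GLC3, GPH1, PGM2 and UGP1 stayed past the threshold in each; the exceptions, GLG2, GDB1 and PGM1, are given beside their values. GLG2 passed under quantile normalization (adjusted p = 0.0413) and with the replicate number as a block (adjusted p = 0.0319). GPH1 and UGP1 have no value among features without overlap. Leaving out 1 library gave 766 to 2442 called features (2133 with all; 766, 781 and 1039 without scc2-4 replicates 3, 2 and 1, 1415 without WT replicate 2), 4 to 10 regulators (8 with all), 7 to 16 PKA and stress regulators (15 with all) and 5 to 12 growth state markers (9 with all). Fewer samples also lower the power of these fits. In the 250 bases before the start codon 5 of the 10 genes held a stress element, against 18.4% of promoters, and in 800 bases 9 did, against 47.7%. Deviations from the genotype means of libraries with the same replicate number correlated at 0.305, -0.062 and 0.353. Libraries 1 and 3 correlated best with their own number while 2 did not. The main fit did not take the numbers as pairs, and these values do not settle whether they mark pairs. With the replicate number as a block, the fit called 2341 features, 10 glycogen genes and 13 growth state markers (9 markers in the main fit). Low depth limits GLG2 most, with 128 to 246 reads in a library.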

Other observations

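The nearest protein-coding features that lie beside each glycogen gene without overlap were read as well. Of 20 such features 19 were tested; 7 were lower in scc2-4, 0 were higher in limma (2 at an unadjusted p under 0.05) and 12 were past neither, beside 15.0% lower and 17.5% higher over all features. Their median log2 change was -0.24. The genes named here were chosen after their values were seen. CMK1, a calmodulin-dependent kinase gene beside GSY1, had 32.5, 32.0 and 27.1 RPKM in scc2-4, against 116, 71.5 and 62.3 RPKM in WT (log2 change -1.36, adjusted p = 0.00484 in limma). YPK2, a protein kinase gene beside PGM2, had 27.2, 25.2 and 18.9 RPKM in scc2-4, against 115, 71.1 and 61.6 RPKM in WT (log2 change -1.71, adjusted p = 0.00337). The remaining lower features were YLR257W and HSP60 on the 2 sides of GSY2 (log2 changes -1.62 and -0.54), UBC8 beside GLC3 (-1.12), AIM26 beside UGP1 (-1.61) and YPR159C-A beside GPH1 (-1.49). AIM26 lies 169 bases from UGP1, and both overlap YKL036C (log2 change -1.64). As strand use in counting is not stated, their reads may not be fully separate. YPR159C-A was listed at 0 RPKM in all scc2-4 libraries and at 4.03, 1.13 and 1.12 RPKM in WT. It passed the filter of a mean RPKM of at least 1 only through WT, the genotype where it was higher. Its values lie near the floor, so its call, 1 of the 7 lower ones, carries little weight. Both neighbours of PGM1, PMU1 and YPK1, were past neither side of the test (log2 changes 0.26 and 0.05), as were both neighbours of GDB1 and of GLG1.

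The genes HXK1, HXK2 and GIP2 were likewise chosen after their values were seen. HXK1, the hexokinase gene known to be repressed by glucose, had 218, 171 and 93.6 RPKM in scc2-4, against 2557, 850.0 and 693 RPKM in WT. It fell 7.46-fold (adjusted p = 0.00809), or 5.14-fold without WT replicate 1, and it overlaps YFR052C-A. HXK2, the hexokinase gene of growth on glucose, had 1049, 1134 and 1157 RPKM in scc2-4, against 1803, 1731 and 1615 RPKM in WT, a fall of 1.53-fold (adjusted p = 0.00912). GIP2, a further gene for a targeting subunit of Glc7, had 5.91, 4.41 and 2.93 RPKM in scc2-4, against 23.7, 10.7 and 8.77 RPKM in WT (log2 change -1.41, adjusted p = 0.0208). GIP2 lost its call when scc2-4 replicate 2 or 3 was left out (adjusted p = 0.0683 and 0.0766), in a range of 0.00413 to 0.0766 over its alternatives.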
